A study of Mus musculus with 18 samples.

Results

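The CXC chemokine genes Cxcl1, Cxcl2, Cxcl3, Cxcl9, Cxcl10, Cxcl14 and Cxcl16 were followed across bone marrow-derived macrophages, which are macrophages grown in culture from mouse marrow. They were taken as the rows of the count table whose Ensembl identifiers carry these symbols in GENCODE M21, an annotation of the GRCm38 mouse genome. All 7 genes were among the 48794 rows of the table. Of these 7, 5 passed the filter on low counts, which left 13177 genes for testing, and Cxcl1 and Cxcl9 did not. Marrow of male C57BL/6 mice was matured for 7 days in recombinant human M-CSF, the macrophage growth factor, at 50 ng/ml. Every culture was then kept for 24 h in M-CSF at 10 ng/ml. Control cultures received nothing else, IL4_IL13 cultures also received mouse IL-4 and IL-13 at 10 ng/ml each, and IL4_IL13_TNFa cultures received IL-4, IL-13 and mouse TNFa at 10 ng/ml each. Poly(A) RNA was sequenced from 6 libraries per group, numbered 1 to 6. No group received TNFa alone, so its effect without IL-4 and IL-13 was not measured. The age of the mice is not given. Nothing in the labels ties the 6 libraries to different mice or dishes. The p-values therefore reflect variation between libraries, and that variation may be purely technical.

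Chemokines are small secreted proteins that guide leukocytes through G protein-coupled receptors. Cxcl1, Cxcl2 and Cxcl3 carry the ELR motif before the CXC cysteines, act on Cxcr2 and recruit neutrophils, and in macrophages their genes are classical targets of NF-kB. Cxcl9 and Cxcl10 are induced by interferons, act on Cxcr3 and recruit activated T and NK cells, and Cxcl10 also responds to NF-kB. Cxcl16 is made as a membrane-bound protein that can be shed by the proteases ADAM10 and ADAM17, is the ligand of Cxcr6 and also serves as a scavenger receptor for oxidized lipoprotein. Cxcl14 is a chemokine that many healthy tissues express.

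The 250 bases before the annotated start were read for 6 of the 7 genes from RefSeq windows on GRCm38.p6, and Cxcl16 was not shown. The windows below run 5′ to 3′ on the gene's strand. Capitals mark matches to the NF-kB and ISRE motifs. The ISRE is the element bound by interferon-activated factors. Each window shown holds such a match, and that of Cxcl9, which holds neither motif, is not shown. The NF-kB motif was matched in the ELR chemokine genes and also in Cxcl10.
Cxcl1: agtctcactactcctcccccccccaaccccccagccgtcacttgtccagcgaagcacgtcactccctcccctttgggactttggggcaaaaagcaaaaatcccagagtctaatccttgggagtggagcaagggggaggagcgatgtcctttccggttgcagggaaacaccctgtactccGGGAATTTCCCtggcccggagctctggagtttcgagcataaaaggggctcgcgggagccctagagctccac
Cxcl2: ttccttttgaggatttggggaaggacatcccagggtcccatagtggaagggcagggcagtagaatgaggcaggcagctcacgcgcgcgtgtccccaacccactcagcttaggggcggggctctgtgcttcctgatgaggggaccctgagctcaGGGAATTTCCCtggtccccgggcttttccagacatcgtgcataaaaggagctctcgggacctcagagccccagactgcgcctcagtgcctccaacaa
Cxcl3: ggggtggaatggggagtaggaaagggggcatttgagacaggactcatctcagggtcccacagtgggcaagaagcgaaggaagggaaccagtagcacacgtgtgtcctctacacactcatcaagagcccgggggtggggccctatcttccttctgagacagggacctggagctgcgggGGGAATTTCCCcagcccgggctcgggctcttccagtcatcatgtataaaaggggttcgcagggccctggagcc
Cxcl10: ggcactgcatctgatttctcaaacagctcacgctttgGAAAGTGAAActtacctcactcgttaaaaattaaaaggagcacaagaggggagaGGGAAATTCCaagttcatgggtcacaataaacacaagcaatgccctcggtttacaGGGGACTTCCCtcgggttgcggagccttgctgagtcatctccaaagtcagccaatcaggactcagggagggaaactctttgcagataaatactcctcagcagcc
Cxcl14: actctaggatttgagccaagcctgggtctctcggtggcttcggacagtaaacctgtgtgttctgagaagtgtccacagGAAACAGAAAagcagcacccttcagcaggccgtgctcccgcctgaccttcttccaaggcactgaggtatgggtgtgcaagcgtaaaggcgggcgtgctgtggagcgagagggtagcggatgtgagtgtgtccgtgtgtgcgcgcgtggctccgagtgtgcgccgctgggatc
These windows lie at chr5:90890995-90891244 on the plus strand for Cxcl1, chr5:90903649-90903898 on the plus strand for Cxcl2, chr5:90785851-90786100 on the plus strand for Cxcl3, chr5:92348890-92349139 on the minus strand for Cxcl10 and chr13:56296552-56296801 on the minus strand for Cxcl14.

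The same 10 letters, GGGAATTTCC, matched the NF-kB motif in all 3 ELR windows, with the first base at -71 in Cxcl1, -97 in Cxcl2 and -73 in Cxcl3, counted from the start. Each of these matches overlapped a second match on the other strand, 1 base further on. Cxcl10 held an NF-kB match at -159 (GGGAAATTCC), a pair of overlapping ones from -104 (GGGGACTTCC), and the ISRE, searched as GAAA, any 2 bases and GAAA, at -213 (GAAAGTGAAA). Cxcl14 had no NF-kB match in its window but had an ISRE match at -172 (GAAACAGAAA). Cxcl9 held only the TATA box TATAAA, at -195, and Cxcl3 held it at -30. The STAT6-type motif (TTC, any 4 bases, GAA) was in none of the 6 windows. All motifs were searched on both strands. Over 27025 gene windows (250 bases before the start and 50 after it), the NF-kB motif was found in 8.18%, the ISRE in 3.49%, the STAT6-type motif in 6.99% and the TATA box in 14.2%. These matches describe letters in the windows; binding was not measured.

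The libraries held 14793404 to 20056125 counts. Levels are in CPM, the count scaled to library size, with sizes adjusted by edgeR's TMM method. Differences are log2 fold changes from edgeR's quasi-likelihood test over all 18 libraries, with an approximate standard error after ± and with Benjamini-Hochberg adjustment over the 13177 genes. All 12 macrophage markers were at 1 CPM or more in Control and IL4_IL13 and 11 of 12 in IL4_IL13_TNFa. Their summed level was 16278 to 28254 CPM in Control, 10328 to 12652 in IL4_IL13 and 9847 to 10764 in IL4_IL13_TNFa, with no overlap of Control and the others. Lyz2 averaged 12005, 2848 and 3190 CPM in the 3 groups, and Fcgr1 130, 21.9 and 0.999 CPM. The part of these shifts in the chemokine results was not tested. Control replicate 1 stood apart: 1836 genes lay over 2-fold from the other 5 controls, and no other library exceeded 393 such genes. Same-numbered libraries deviated together across the groups. As RNA came from whole cultures, fewer cells of a type and less RNA per cell cannot be told apart.

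Per kb of annotated exon, Cxcl16 had the highest mean level of the 7 genes in every group. Its mean was 136 CPM per kb in Control, 42.0 in IL4_IL13 and 212 in IL4_IL13_TNFa. Cxcl14 came next in Control (64.4 CPM per kb) and IL4_IL13 (36.5), and its libraries overlapped those of Cxcl16 in both groups, so the order of this pair was not beyond the spread. The order below them changed between the groups. In Control, Cxcl10 (4.53 CPM per kb) and Cxcl2 (3.23) followed with overlapping libraries, and Cxcl1 (0.238), Cxcl3 (0.11) and Cxcl9 (0.0908) overlapped one another at the bottom. In IL4_IL13 the 5 genes below Cxcl14 had means from 0.0258 to 0.719 CPM per kb, and the libraries of each overlapped those of the next. In IL4_IL13_TNFa, Cxcl3 (43.8 CPM per kb) and Cxcl2 (38.2) overlapped each other and lay above Cxcl14 (15), which lay above Cxcl10 (0.734) and Cxcl1 (0.703). Cxcl9 was lowest at 0.167 CPM per kb. Summed over the 7 genes, the median library held 207 CPM per kb in Control, 80.3 in IL4_IL13 and 308 in IL4_IL13_TNFa, and the ranges of 197 to 228, 73.8 to 85.4 and 285 to 337 did not overlap. The median share of that sum held by Cxcl2 was 1.51% in Control, 0.523% in IL4_IL13 and 12.5% in IL4_IL13_TNFa. For Cxcl3 the median share was 0.020%, 0.0229% and 13.2%. Cxcl14 held 28.5%, 45.4% and 4.91%, so it made up more of a smaller sum in IL4_IL13 and little of the sum once TNFa was added.

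**Figure D1:**
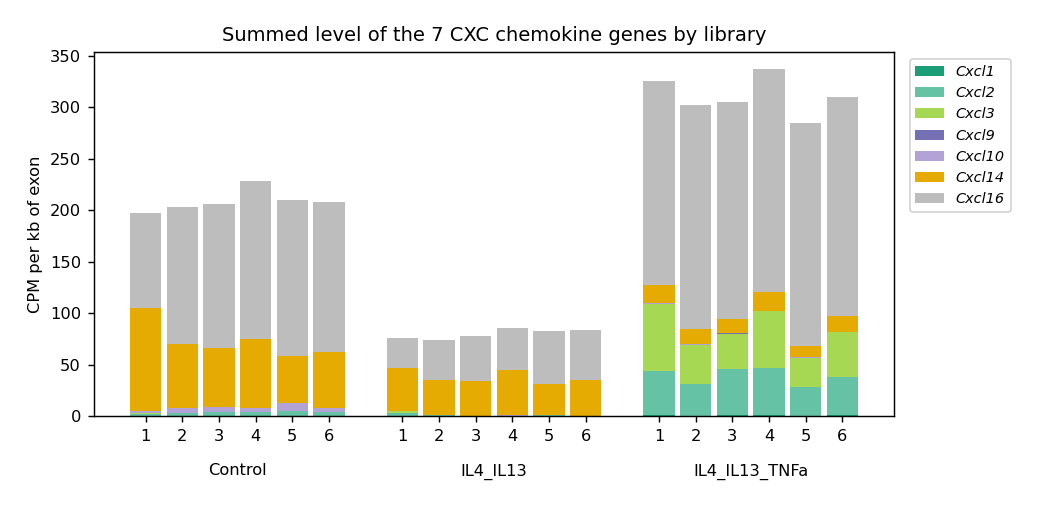
Summed level of the 7 genes in each library, in CPM per kb of exon, as bars stacked by gene, with replicate numbers 1 to 6 under the bars. Cxcl16 and Cxcl14 make up nearly all of the Control and IL4_IL13 bars, and Cxcl2 and Cxcl3 become visible in the IL4_IL13_TNFa bars, whose sums run from 285 to 337 CPM per kb.

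IL4_IL13 was set against Control for the response to the type 2 cytokines. Of the 5 tested genes 4 fell (Cxcl2, Cxcl10, Cxcl14 and Cxcl16), none rose, and Cxcl3 did not pass the test. Across all genes 59.0% were called in this comparison, 29.3% higher and 29.7% lower. The median log2 fold change of the 5 genes was -1.70, beside -0.00245 over all 13177 genes. For Cxcl10, Cxcl14 and Cxcl16, 3 of the 5 tested genes, the libraries of the groups did not overlap, as for 26.7% of all 13177 genes.

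IL4_IL13_TNFa was set against IL4_IL13 for the response to TNFa on top of IL-4 and IL-13. Of the 5 tested genes 4 rose (Cxcl2, Cxcl3, Cxcl10 and Cxcl16) and Cxcl14 fell, where 59.6% of all genes were called, 30.3% higher and 29.3% lower. The median log2 fold change was 2.46, beside 0.00299 over all genes. The libraries of the groups did not overlap for any of the 7 genes, 5 of them tested, and for 44.9% of all 13177 genes. For Cxcl9, not tested, this held only with TMM scaling, as the nearest libraries of the 2 groups each held 3 counts. Against Control, IL4_IL13_TNFa was higher for Cxcl2, Cxcl3 and Cxcl16 and lower for Cxcl10 and Cxcl14, with a median of 0.64 beside -0.0221 over all genes, and 73.8% of all genes were called, 36.4% higher and 37.3% lower. There the libraries did not overlap for the 5 tested genes and for 51.2% of all genes. These comparisons share groups and are not independent of one another. Cxcl3 did not pass the filter when only Control and IL4_IL13 were kept. It was tested through the IL4_IL13_TNFa libraries, where it was high, and is counted in the numbers and medians of every comparison. Its place among the genes that rose was therefore not independent of the filter.

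Scaling affected the whole table. With library totals in place of TMM the median gene moved to -0.0444, -0.203 and -0.271 on the log2 scale in the 3 comparisons, in the order above. The share of called genes that were higher then went from 49.7% to 44.2%, from 50.9% to 27.5% and from 49.4% to 32.7%. No called member changed direction or lost its call. Cxcl16 in IL4_IL13_TNFa against Control moved from a log2 fold change of 0.64 to 0.39.

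**Figure D2:**
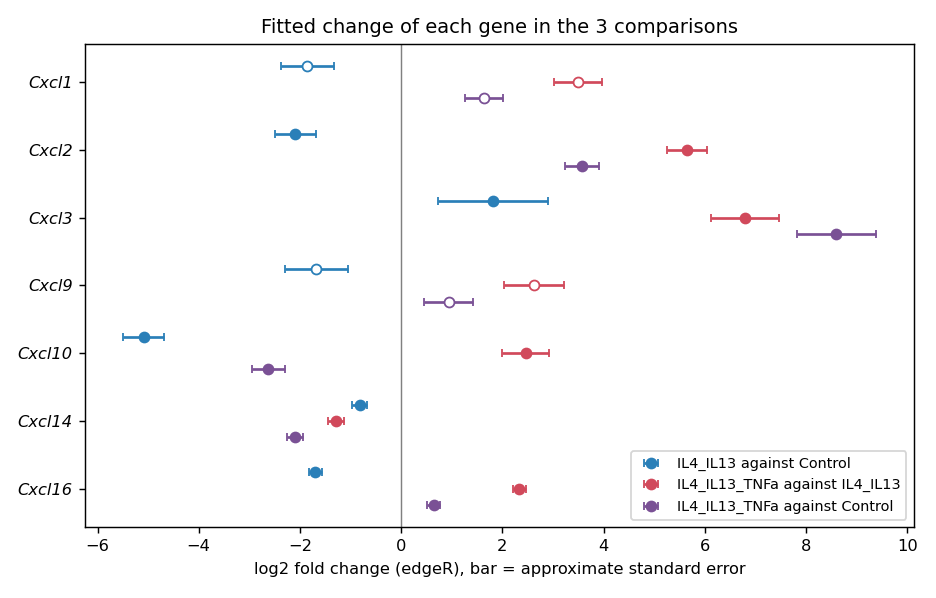
Log2 fold changes of the 7 genes in the 3 comparisons, with bars for the approximate standard error. Filled points come from the fit to the 13177 genes that passed the filter and open points (Cxcl1 and Cxcl9) from the fit without a filter; all IL4_IL13_TNFa against IL4_IL13 points but that of Cxcl14 lie above 0, and the Cxcl3 point for IL4_IL13 against Control did not pass the test.

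Among the ELR genes, Cxcl2 was the most abundant in Control. Cxcl2 (ENSMUSG00000058427) lies on chromosome 5 from 90903871 to 90905938 on the plus strand. In Control its lowest, median and highest levels were 4.37, 6.69 and 8.98 CPM. In IL4_IL13 they were 0.431, 0.844 and 5.0 CPM, and in IL4_IL13_TNFa 58.1, 82.3 and 94.7 CPM. The IL4_IL13_TNFa libraries lay above all others, and the IL4_IL13 libraries lay below Control except replicate 1, at 5.0 CPM, which was above the lowest control. Cxcl2 fell with IL-4 and IL-13 (log2 fold change -2.09 ± 0.40, edgeR adjusted p = 0.000244), and the change was -3.09 without IL4_IL13 replicate 1. With TNFa added it rose 50.5-fold (log2 fold change 5.66 ± 0.39, edgeR adjusted p = 5.48e-10), and the log2 fold change was 6.66 without that library. Against Control, IL4_IL13_TNFa was 11.8-fold higher (log2 fold change 3.57 ± 0.34, edgeR adjusted p = 2.09e-08), and higher in all 6 replicate numbers.

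Cxcl3 (ENSMUSG00000029379) lies on chromosome 5 from 90786103 to 90789600 on the plus strand. Its lowest, median and highest levels were 0.0551, 0.145 and 1.00 CPM in Control, 0.0539, 0.0639 and 6.88 CPM in IL4_IL13, and 97.5, 141 and 227 CPM in IL4_IL13_TNFa. All libraries without TNFa lay far below those with it. Of the 152 Cxcl3 counts in IL4_IL13, 143 came from replicate 1, and the 6 controls held 43 counts together. Libraries numbered 1 and 4 had the highest Cxcl3 level in every group, at 1.00 and 0.869 CPM in Control, 6.88 and 0.283 in IL4_IL13, and 227 and 192 in IL4_IL13_TNFa. No label says what a replicate number marks. IL4_IL13 against Control gave a log2 fold change of 1.81 ± 1.09, which missed the threshold (edgeR adjusted p = 0.16), and its sign turned to -1.79 without IL4_IL13 replicate 1 (edgeR adjusted p = 0.132). Cxcl3 rose with added TNFa (log2 fold change 6.79 ± 0.67, edgeR adjusted p = 6.85e-08), a change that was 10.39 without IL4_IL13 replicate 1. Against Control the rise was 8.60 ± 0.78 (edgeR adjusted p = 1.22e-08), and 9.20 without Control replicate 1. The fitted folds of 110.6 and 388 therefore rest on few counts in the lower groups.

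Cxcl1 (ENSMUSG00000029380), on chromosome 5 from 90891241 to 90893115 on the plus strand, had the lowest level of the 3 ELR members once TNFa was added. Its 6 libraries held 49 counts in Control, 12 in IL4_IL13 and 120 in IL4_IL13_TNFa. The lowest, median and highest levels were 0.192, 0.460 and 0.716 CPM in Control, 0, 0.0836 and 0.288 CPM in IL4_IL13, and 0.498, 1.44 and 2.19 CPM in IL4_IL13_TNFa. Every IL4_IL13_TNFa library was above every IL4_IL13 library, while the other pairs of groups overlapped. In a fit without a filter, added after the data had been seen, 31497 genes were tested and 22.2%, 23.4% and 31.9% of them were called in the comparisons of IL4_IL13 with Control, IL4_IL13_TNFa with IL4_IL13 and IL4_IL13_TNFa with Control. There Cxcl1 fell with IL-4 and IL-13 (log2 fold change -1.85 ± 0.53, edgeR adjusted p = 0.00837; -2.47 without IL4_IL13 replicate 1). It rose with added TNFa (log2 fold change 3.49 ± 0.47, edgeR adjusted p = 4.36e-07; 4.11 without that library). Against Control it rose 3.11-fold (edgeR adjusted p = 0.000795), and was higher in 5 of 6 replicate numbers.

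The balance among the ELR genes shifted with the treatment. The median ratio of Cxcl3 to Cxcl2, per kb of exon, was 0.0123 in Control, 0.0665 in IL4_IL13 and 1.18 in IL4_IL13_TNFa. In the last group the ratio ran from 0.781 to 1.52, and the highest ratio in Control was 0.136. IL4_IL13 reached 0.813, in replicate 1. The median ratio of Cxcl2 to Cxcl1 was 13.6 in Control and 57.2 in IL4_IL13_TNFa, and 10.9 over the 5 IL4_IL13 libraries that held a Cxcl1 count. With 12 Cxcl1 counts in that group, the last ratio is imprecise.

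**Figure D3:**
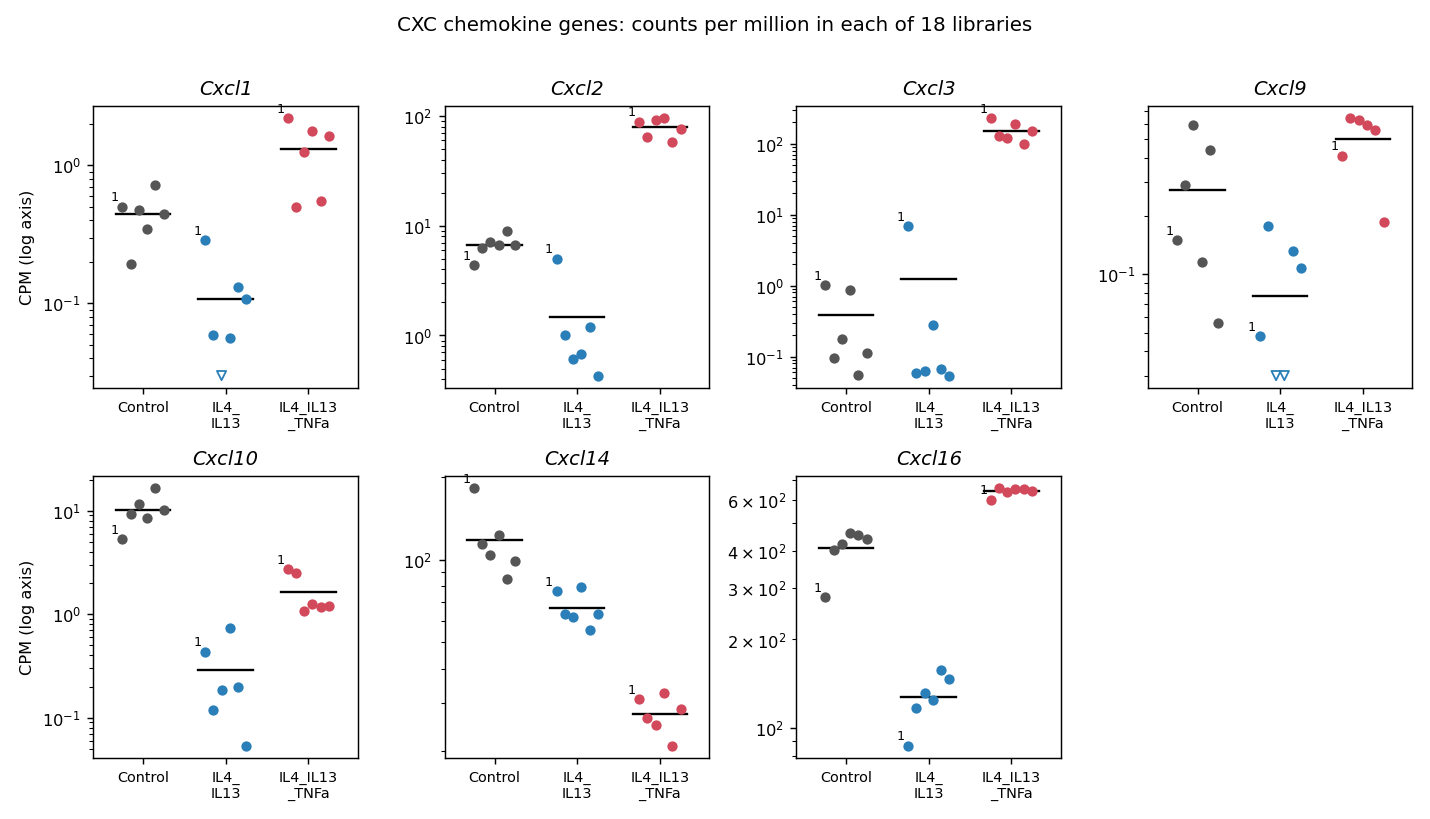
Level of each gene in each library in CPM on a log axis, by group, with the group mean as a bar and replicate 1 marked. Open triangles stand for libraries with no count, placed at the bottom of the panel. The 6 IL4_IL13_TNFa points of Cxcl2 and Cxcl3 lie above every point of the other groups, those of Cxcl14 lie below, and IL4_IL13 replicate 1 lies above its group for Cxcl2 (5.0 CPM) and Cxcl3 (6.88 CPM).

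Of the interferon-induced genes, Cxcl10 (ENSMUSG00000034855) lies on chromosome 5 from 92346638 to 92348889 on the minus strand. Its lowest, median and highest levels were 5.27, 9.78 and 16.4 CPM in Control, 0.0539, 0.192 and 0.735 CPM in IL4_IL13, and 1.07, 1.22 and 2.74 CPM in IL4_IL13_TNFa. The 3 groups did not overlap, and IL4_IL13_TNFa lay between the others. Cxcl10 rose 5.5-fold with added TNFa (log2 fold change 2.46 ± 0.46, edgeR adjusted p = 0.000148). It was still 6.18-fold lower than Control (log2 fold change -2.63 ± 0.33, edgeR adjusted p = 8.54e-07). The 34-fold fall with IL-4 and IL-13 alone was the largest fitted fall of any member in the 3 comparisons (edgeR adjusted p = 6.2e-09), on 1121 counts in Control and 31 in IL4_IL13. The gene overlaps Art3, which lies on the other strand and averaged 0.203, 0.194 and 0.196 CPM in the 3 groups.

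Cxcl9 (ENSMUSG00000029417), on chromosome 5 from 92321347 to 92328079 on the minus strand, held 30 counts in Control, 8 in IL4_IL13 and 45 in IL4_IL13_TNFa. Its lowest, median and highest levels were 0.0559, 0.220 and 0.592 CPM in Control, 0, 0.0779 and 0.178 CPM in IL4_IL13, and 0.188, 0.576 and 0.640 CPM in IL4_IL13_TNFa. Only the groups with and without TNFa among the cells given IL-4 and IL-13 were separate, and barely so. IL4_IL13 replicate 2 and IL4_IL13_TNFa replicate 6 each held 3 counts, at 0.178 and 0.188 CPM. On plain library totals 3 counts were 0.186 and 0.171 CPM in these libraries, so the groups overlapped. In the fit without a filter Cxcl9 rose with added TNFa (log2 fold change 2.62 ± 0.59, edgeR adjusted p = 0.000777). IL4_IL13 against Control gave -1.68 ± 0.62 and missed the threshold (edgeR adjusted p = 0.0507). That value crossed it when any of 6 libraries was left out, Control replicate 1, 4 or 6, IL4_IL13 replicate 2 or 5, or IL4_IL13_TNFa replicate 6, with edgeR adjusted p from 0.0232 to 0.0486, and was 0.17 at its highest. IL4_IL13_TNFa against Control gave 0.94 ± 0.49 (edgeR adjusted p = 0.158), so a difference was not detectable at this depth, though all 6 replicate numbers were higher. The median ratio of Cxcl10 to Cxcl9 per kb was 48.4 in Control and 4.03 in IL4_IL13_TNFa.

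Cxcl16 (ENSMUSG00000018920), the membrane-bound chemokine gene on chromosome 11 from 70453983 to 70459984 on the minus strand, had levels of 278, 433 and 462 CPM in Control (lowest, median and highest). In IL4_IL13 they were 86.8, 128 and 157 CPM, and in IL4_IL13_TNFa 600.1, 649 and 657 CPM. The 3 groups did not overlap, and replicate 1 was the lowest library in each. Cxcl16 fell with IL-4 and IL-13 (log2 fold change -1.70 ± 0.13, edgeR adjusted p = 2.11e-09) and rose with added TNFa by 2.34 ± 0.13 (edgeR adjusted p = 1.61e-11). It ended 1.56-fold above Control (log2 fold change 0.64 ± 0.12, edgeR adjusted p = 0.000121). Cxcl16 overlaps Zmynd15, on the opposite strand, which averaged 58.3, 11.2 and 33.2 CPM in the 3 groups. The libraries were stranded, but the strand setting of the counting is not given in the sources used here. Reads of this overlapping pair may therefore not be fully separated. Zmynd15 was lower in IL4_IL13_TNFa than in Control (log2 fold change -0.81, edgeR adjusted p = 0.000321), where Cxcl16 was higher.

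Cxcl14 (ENSMUSG00000021508), on chromosome 13 from 56288643 to 56296551 on the minus strand, fell at each step. The lowest, median and highest levels were 84.8, 109 and 182 CPM in Control, 55.3, 63.3 and 79.7 CPM in IL4_IL13, and 21, 27.5 and 32.6 CPM in IL4_IL13_TNFa. The 3 groups did not overlap, and Control replicate 1 was the highest library of all. The log2 fold change with IL-4 and IL-13 was -0.82 ± 0.15 (edgeR adjusted p = 0.000184), and that with added TNFa was -1.28 ± 0.16 (edgeR adjusted p = 1.22e-06). Against Control, IL4_IL13_TNFa was 4.29-fold lower (edgeR adjusted p = 1.05e-09). The median ratio of Cxcl16 to Cxcl14 per kb was 2.37 in Control, 1.19 in IL4_IL13 and 14.3 in IL4_IL13_TNFa. Cxcl14 thus fell with TNFa where Cxcl16, at a similar level before it, rose.

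Cxcl1, Cxcl2 and Cxcl3 lie in a cluster of CXC genes on chromosome 5, and genes that start within 100 kb of a member were read as neighbours. Pf4, the platelet factor gene that starts at -13.7 kb from Cxcl3, averaged 53.7 ± 19.6 CPM in Control, 18.7 ± 5.71 in IL4_IL13 and 109 ± 32.2 in IL4_IL13_TNFa (SD, n = 6). It fell with IL-4 and IL-13 (log2 fold change -1.52, edgeR adjusted p = 4.15e-05) and rose with added TNFa (2.54, edgeR adjusted p = 6.72e-08). Ppbp, another platelet chemokine gene, at -17.6 kb, averaged 0.821, 0.178 and 6.32 CPM, and its rise with added TNFa was 5.08 on the log2 scale (edgeR adjusted p = 4.34e-12). Mthfd2l, a folate enzyme gene beside Cxcl2, fell with IL-4 and IL-13 and rose with added TNFa as well, at 3.68, 2.22 and 4.87 CPM. Cxcl5, a further ELR gene at -26.7 kb, had 1, 1 and 20 counts in the 3 groups. Cxcl15 had 0, 0 and 2 counts although it starts 8.43 kb after Cxcl3. Over the neighbourhoods of all 7 genes, 14 of 40 annotated neighbours were tested. For IL4_IL13 against Control 3 were higher and 7 lower, and for added TNFa 9 were higher and 2 lower. For IL4_IL13_TNFa against Control 7 were higher and 3 lower. Across all genes 59.0%, 59.6% and 73.8% were called in these comparisons. With the replicate number as a block, Sdad1 and Ppef2 near Cxcl9 and Cxcl10 also passed as higher in the first comparison (edgeR adjusted p = 0.0124 and 0.0432), and Ppef2 as lower in the last (0.0446).

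**Figure D4:**
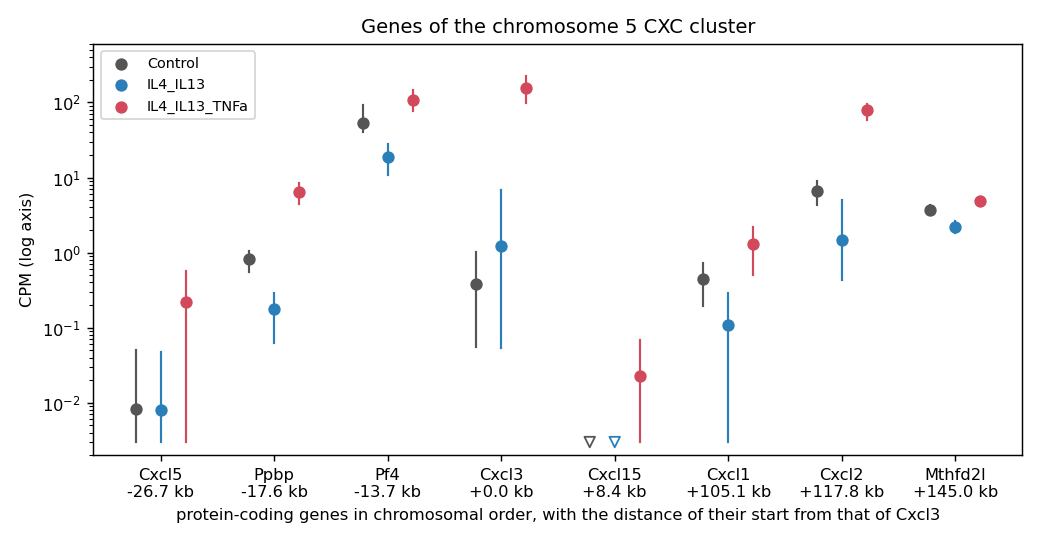
Protein-coding genes of the chromosome 5 cluster in chromosomal order, with the distance of each start from that of Cxcl3 in kb. Points are group means in CPM on a log axis, lines run from the lowest to the highest of 6 libraries, and open triangles mark groups with no count. The IL4_IL13_TNFa mean is the highest of the 3 groups for each gene, from 0.0224 CPM for Cxcl15 to 153 CPM for Cxcl3.

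Of 10 further CXC, CX3C and XC ligand genes 4 passed the filter. Pf4 and Ppbp fell with IL-4 and IL-13 and none rose. Over all genes 59.0% were called there, 59.6% with added TNFa and 73.8% in IL4_IL13_TNFa against Control. With added TNFa Pf4, Ppbp and Cx3cl1, the membrane-bound fractalkine gene, rose (1.92-fold for Cx3cl1, edgeR adjusted p = 0.00085). All 3 were also above Control, but Cx3cl1 did not pass there with library totals (edgeR adjusted p = 0.106). Cxcl12, which retains stem cells in the marrow, was at 2.76, 3.26 and 2.11 CPM and passed no test for IL4_IL13 against Control, added TNFa and IL4_IL13_TNFa against Control (edgeR adjusted p of 0.717, 0.362 and 0.561). With the replicate number as a block it was lower with added TNFa (log2 fold change -0.73, edgeR adjusted p = 0.0463). Cxcl11, another Cxcr3 ligand gene, annotated as a polymorphic pseudogene, had 1, 1 and 4 counts.

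Of 12 receptor and decoy receptor genes 5 passed the filter. Cxcr2, the receptor of the ELR chemokines, had 4 counts over the 6 controls and averaged 4.61 CPM in IL4_IL13 and 14.0 CPM in IL4_IL13_TNFa. It rose with IL-4 and IL-13 (log2 fold change 6.73, and 7.33 without Control replicate 4; edgeR adjusted p = 7.7e-12) and a further 3.04-fold with added TNFa (edgeR adjusted p = 1.4e-07). Cxcr3, the receptor of Cxcl9 and Cxcl10, fell from 3.51 to 0.461 CPM with IL-4 and IL-13 (edgeR adjusted p = 2.63e-09) and had 1 count in the 6 IL4_IL13_TNFa libraries together. Cxcr4, the Cxcl12 receptor, fell at each step, from 348 to 119 and 43.0 CPM, and Cx3cr1, the fractalkine receptor, from 888 to 67.6 CPM with IL-4 and IL-13 and stood at 117 CPM with TNFa added. In Control replicate 1 Cxcr4 was at 148 CPM, against 381 to 400.2 CPM in the other controls. Cxcr6, the Cxcl16 receptor, was not tested, with 3, 4 and 6 counts. In all 1 receptor gene was higher and 3 lower in IL4_IL13 against Control, and 2 and 3 with added TNFa. In IL4_IL13_TNFa against Control 1 was higher and 4 lower. The shares of all genes called were 59.0%, 59.6% and 73.8%.

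**Figure D5:**
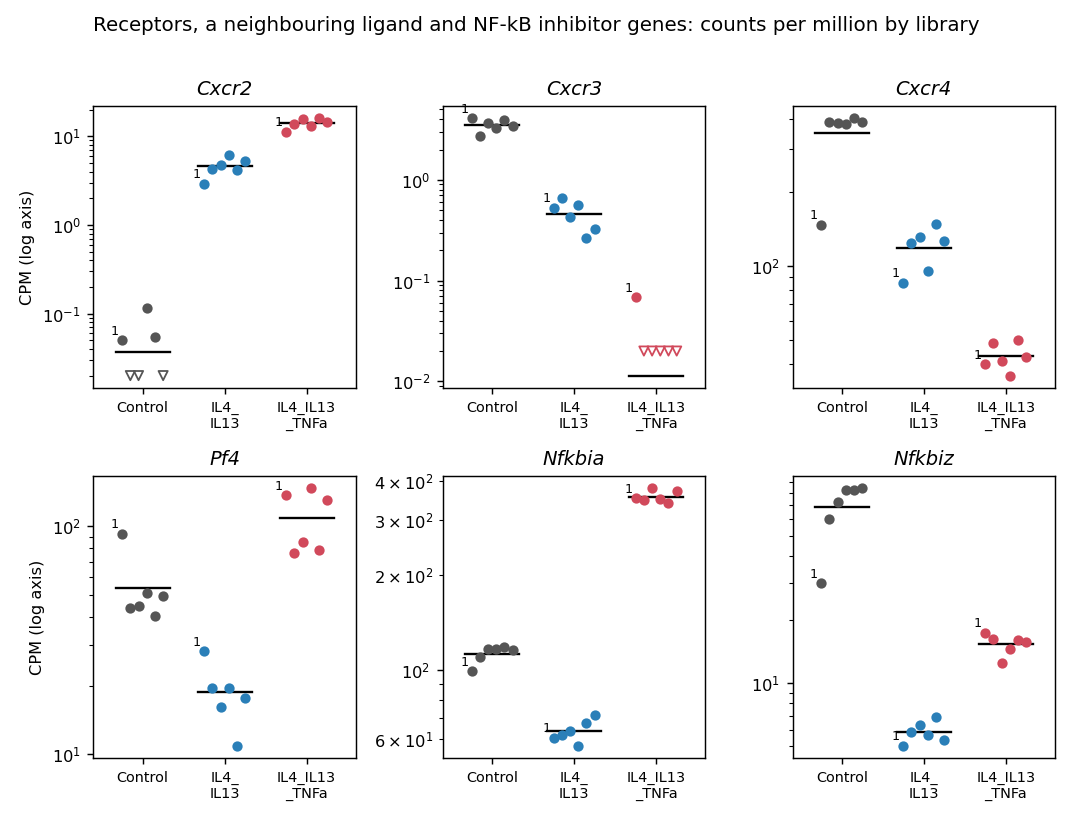
Levels of 3 receptor genes, the neighbouring ligand Pf4 and the NF-kB pathway genes Nfkbia and Nfkbiz in each library. Values are CPM on a log axis, with the group mean as a bar. Replicate 1 is marked and open triangles stand for libraries with no count. Nfkbiz encodes a co-regulator, though the figure title groups both genes as inhibitors. Cxcr2 rises from 0.0369 to 14.0 CPM over the 3 groups while Cxcr3 and Cxcr4 fall, and Nfkbiz, unlike Nfkbia, stays below Control when TNFa is added.

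Of the NF-kB subunits, inhibitors and co-regulators all 11 were tested. With IL-4 and IL-13, 9 fell and 2 rose, beside 29.7% and 29.3% of all genes. With added TNFa 11 of 11 rose, beside 30.3% of all genes. Their median was 2.23 (log2) beside 0.00299 over all genes. Nfkbia, which encodes an inhibitor that NF-kB itself induces, averaged 112, 63.6 and 357 CPM in the 3 groups and rose 5.60-fold with added TNFa (edgeR adjusted p = 1.26e-16). Nfkbie and Tnfaip3, further feedback inhibitors, rose 16.5-fold and 12.9-fold. Nfkbiz, which encodes a nuclear co-regulator of inflammatory genes, was the exception against Control: it fell from 68.8 to 5.87 CPM with IL-4 and IL-13 and reached 15.4 CPM with TNFa, 4.48-fold below Control (edgeR adjusted p = 6.9e-09). Against Control 10 of 11 were higher, beside 36.4% of all genes. With library totals 9 were higher, as Rela did not pass. Cxcl2, Cxcl10 and Cxcl16 also fell with IL-4 and IL-13 and rose with added TNFa, and Nfkbiz and Cxcl10 both ended below Control.

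Of 14 interferon pathway genes 12 were tested. In IL4_IL13 against Control 1 was higher and 7 lower, and with added TNFa 9 and 1. In IL4_IL13_TNFa against Control 5 were higher and 6 lower. Of all genes 59.0%, 59.6% and 73.8% were called. With the replicate number as a block the counts for IL4_IL13 against Control were 2 higher and 8 lower. There Usp18 (edgeR adjusted p = 0.00451) and Ifngr1 (0.0041) passed, and Usp18 also passed without Control replicate 2 (0.00252). Without the block Ifngr1 just missed the threshold (edgeR adjusted p = 0.0514), and it passed in 8 of the alternative fits. Among these were library totals (edgeR adjusted p = 0.0294) and DESeq2 (DESeq2 adjusted p = 0.0395). Irf7, an interferon-induced transcription factor, fell 6.30-fold and rose 3.01-fold with TNFa, and stayed below Control. Irf1 stood at 81.6 and 81.9 CPM in Control and IL4_IL13 (edgeR adjusted p = 0.98) and rose to 125 CPM with TNFa (edgeR adjusted p = 0.0024). Socs1, an inhibitor of cytokine signalling, rose 34.1-fold with IL-4 and IL-13. The genes Ifnb1 and Ifng, which encode interferons, had 2 and 1 counts over all 18 libraries.

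The proteases and proteoglycans that cleave or hold CXC ligands gave 8 tested genes of 11. In IL4_IL13 against Control 4 rose and 1 fell, and with added TNFa 5 rose and 2 fell. In IL4_IL13_TNFa against Control 6 rose and none fell. With library totals these were 6 and 1, as Adam10 was lower (edgeR adjusted p = 0.0242). Among all genes 59.0%, 59.6% and 73.8% were called in the 3 comparisons. Adam10 rose from 402 to 579 CPM with IL-4 and IL-13 and returned to 393 CPM with TNFa, whereas Adam17 fell from 428 to 349 CPM and rose to 636 CPM (edgeR adjusted p from 9.18e-05 to 4.87e-11 in the steps of Adam17, and of 0.000472 and 0.000218 in those of Adam10). Mmp12, the macrophage elastase that can trim ELR chemokines, rose 41.7-fold with IL-4 and IL-13 and a further 4.0-fold with TNFa. Mmp9, which encodes a gelatinase, rose from 2.69 to 807 CPM with added TNFa (log2 fold change 8.17, edgeR adjusted p = 3.99e-09).

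Genes listed for the decay and the stability of chemokine messages gave no single direction. As the list holds both kinds, its counts do not describe decay alone. All 9 were tested. In IL4_IL13 against Control 3 were higher and 4 lower, and with added TNFa 3 and 3. In IL4_IL13_TNFa against Control 6 were higher and 3 lower, or 3 and 3 with library totals. Beside these, 59.0%, 59.6% and 73.8% of all genes were called. Tnip1 had the largest change of the list with added TNFa (log2 fold change 1.29, edgeR adjusted p = 2.91e-13). The 4 lower calls of the first comparison became 2 without Control replicate 2, where Zfp36l1 (edgeR adjusted p = 0.0564) and Rc3h1 (0.0746) missed the threshold. They were also 2 without IL4_IL13 replicate 5 or 6. Zfp36l1, at an edgeR adjusted p of 0.0474 in that comparison, lost its call in 20 of the alternative fits. Zfp36, which encodes the decay factor tristetraprolin, was at 162 and 183 CPM in Control and IL4_IL13 (edgeR adjusted p = 0.176) and fell to 95.4 CPM with TNFa (edgeR adjusted p = 6.28e-07). Zc3h12a, the endonuclease Regnase-1 gene, rose 1.77-fold with IL-4 and IL-13.

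For each tested gene the 2 genes with the most similar profile were taken, by the root mean square difference of gene-centred log2 CPM over the 18 libraries. For Cxcl2 they were Clec4e (0.605), a C-type lectin receptor gene, and Clec4n (0.658), and for Cxcl3 Lad1 (0.914) and H2-M2 (0.963). For Cxcl10 they were the interferon-induced genes Ifit1 (0.631) and Rsad2 (0.784). For Cxcl14 they were 2900026A02Rik (0.149) and Fmnl3 (0.163), and for Cxcl16 Tsku (0.264) and Atrnl1 (0.271). These genes were picked as the closest of all tested genes outside the members. Their differences therefore cannot be weighed against those between the members. Among the 5 members the lowest differences were those of Cxcl14 and Cxcl16 (1.61) and of Cxcl10 and Cxcl16 (1.63). The highest was that of Cxcl3 and Cxcl14 (4.998), while Cxcl2 and Cxcl3 differed by 2.30. This measure depends on the size of the changes as well as on their direction. A low value therefore need not mean a shared direction: with added TNFa, Cxcl14 fell (log2 fold change -1.28) and Cxcl16 rose (2.34). The points share libraries and depth, and low counts widen the difference for Cxcl3.

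Markers of other cells were read beside these results. Of 11 neutrophil and precursor markers, 1 (Mmp8) averaged at least 1 CPM, and Ly6g had no count in any group. The list summed to 20.5 to 35.1 CPM in Control, 29.2 to 35.3 in IL4_IL13 and 46.4 to 68.8 in IL4_IL13_TNFa. Of 12 stromal and fibroblast markers 9 averaged at least 1 CPM in each group. The list summed to 48.9 to 999.7 CPM in Control, 372 to 1221 in IL4_IL13 and 210 to 753 in IL4_IL13_TNFa. Fn1 averaged 104, 444 and 171 CPM in the 3 groups and Lox 15.1, 34.3 and 26.6. The other markers at 1 CPM or more had lower means in IL4_IL13 than in Control, such as Col1a1 at 135, 115 and 72.9 CPM. Replicate 1 had the lowest stromal sum in every group and the highest or second highest Cxcl14 level. Replicate 4 had the second highest stromal sum in every group and also the highest or second highest Cxcl14 level. Of 7 endothelial markers 2 in Control and 3 in the other groups averaged at least 1 CPM, led by Vwf. The list summed to 32.0 to 59.4, 163 to 329 and 94.5 to 219.8 CPM. Vwf averaged 35.2, 235 and 151 CPM and Pecam1 0.548, 6.50 and 1.46, while Kdr fell, at 9.19, 1.40 and 1.13. Of 7 dendritic markers none, 1 and 2 averaged at least 1 CPM in the 3 groups. Their list summed to 1.36 to 3.86, 2.77 to 5.75 and 35.0 to 37.9 CPM. Zbtb46 went from 0.709 to 2.76 and 33.9 CPM and made up most of the last sum. Ccr7 reached 1.33 CPM in IL4_IL13_TNFa, Flt3 fell from 0.858 to 0.541 and 0.290 CPM, and the rest averaged below 1 CPM in every group. In any library the T and NK cell list summed to at most 1.36 CPM, the B cell list to at most 3.20 and the mast cell and basophil list to at most 1.71. The part of other cells in the chemokine levels was not tested.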

How the data were processed

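RNA sequencing of 18 libraries was deposited as raw read counts per gene (whole numbers with unequal totals). Per the submitters' processing notes, the tools were FastQC 0.11.5, RSEM 1.3.0, featureCounts 1.5.1, STAR (2.5.2 and 2.5.2b) and bcl2fastq 2.20.0.422, with the mouse build GRCm38 (mm10). Each tool's role, the annotation used and whether counting was strand-specific: not given in the sources used here. Per the labels' protocols, libraries were stranded and made from poly(A) RNA.

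Samples were grouped by title. GENCODE M21 gave symbols for 48434 of 48794 identifiers, and 360 had none. Exon length is the union of the annotated exons. Same-group libraries differed beyond sampling noise in all 45 pairs (chi-square per degree of freedom at least 2.59).

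Genes were kept by filterByExpr (minimum count 10) and fitted over all 18 libraries with edgeR 4.0.16 (TMM, robust quasi-likelihood, adjusted p of 0.05) in R 4.3.3. Standard errors were approximated by dividing the size of the log2 fold change by the root of its F statistic. Log2 CPM for likeness used a prior count of 2. As alternatives, the tests were DESeq2 1.42.0 and voom (limma 3.58.1), the scaling used DESeq2's factors or plain totals, and the filter was dropped or tightened (5 CPM in 6 libraries). Others blocked on replicate number, kept just the compared groups, or dropped 1 library or every library numbered 1. The fit without a filter for Cxcl1 and Cxcl9 was added after seeing the data. Those for list genes and neighbours were also added then. The tests were checked on simulated counts.

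Named from each list were up to 4 genes per comparison with the largest change past the threshold, and 12 genes chosen for their role. Rela, Cxcl5, Cxcl11, Cxcl15, Ifnb1, Ifng, Zbtb46, Ccr7, Flt3, Vwf, Lyz2, Fcgr1, Rc3h1 and Usp18 were named after their values were seen. So were Fn1, Lox, Col1a1, Pecam1 and Kdr. Some motif and list results are not reported here. The chemokine genes, lists and markers were chosen with earlier results of these data known.

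After group means were removed, libraries with the same number correlated (0.128 to 0.671 over 18 pairs). The pairing is thus read from the counts, with no reason given in the labels. Counting limits are for these libraries only, as reads are not independent molecules.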

Additional observations from a re-analysis of the deposited data

Results flagged for a closer look

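A library at the edge of its group was found in 4 of 21 sets of 6 libraries examined (7 genes in 3 groups), and chance alone gives about 1 in 20. All 4 were libraries numbered 1. IL4_IL13 replicate 1 had 5.0 CPM of Cxcl2, where the next library had 1.19 CPM. The same library had 6.88 CPM of Cxcl3, where the next had 0.283 CPM. It also had the highest Cxcl1 level of its group, 0.288 CPM, and the highest levels of Tnf (6.39 CPM, beside 3.61 to 4.39 in the others) and Il1b (1.73 CPM, beside 0.108 to 0.616), genes of inflammatory cytokines named after their values were seen. Control replicate 1 had the lowest Cxcl16 level of the controls, 278 CPM, where the next had 404 CPM, and this library differed from the other controls in 1836 genes. IL4_IL13_TNFa replicate 1 had 600.1 CPM of Cxcl16, where the next library had 638 CPM. What sets the libraries numbered 1 apart was not tested.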

How the results depend on the processing

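Numbers of called members and of all genes stayed within 1.5 times of those reported under every alternative run. The number of called genes ran from 7179 to 9081, from 7517 to 8727 and from 9472 to 10371 when each library was left out, for IL4_IL13 over Control, for added TNFa, and for IL4_IL13_TNFa over Control. Among the members, the one direction that turned was that of Cxcl3 in IL4_IL13 against Control: from 1.81 to -0.036 with limma voom (adjusted p = 0.984), to -1.19 without the 3 libraries numbered 1 (edgeR adjusted p = 0.402), and from -1.79 to 2.45 when each library was left out. It was never called (adjusted p from 0.105), and had no value with only the 2 groups compared, where it did not pass the filter. For Cxcl3 with added TNFa, voom gave 9.22 and the fit without the libraries numbered 1 gave 10.25, against 6.79. Cxcl3 in IL4_IL13_TNFa against Control was 9.18 with voom. For Cxcl2 the fits without the libraries numbered 1 gave -3.20 in IL4_IL13 against Control and 6.63 with added TNFa.

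Cxcl9 in IL4_IL13 against Control passed with DESeq2's size factors (edgeR adjusted p = 0.0424), with library totals (0.037) and without the libraries numbered 1 (0.0456). With the replicate number as a block, 8632, 8516 and 10185 genes were called in the same order. Among list genes and neighbours the block changed the calls given in the text and that of Elavl1 with added TNFa (edgeR adjusted p of 0.0862 without it and 0.0166 with it). It changed no member's call: Cxcl9 in IL4_IL13 against Control stayed at an adjusted p of 0.059, and Cxcl16 gave -1.70 (edgeR adjusted p = 2.61e-10).

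Depth limits Cxcl1 and Cxcl9, with 181 and 83 counts over all 18 libraries, and Cxcl3 without TNFa. With 6 libraries a group, small differences in these genes were not detectable.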
